A study of Mus musculus with 2 samples.

Results

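Endothelial cells of the islet line the capillaries that carry blood through the islets of Langerhans. They were drawn from droplet single-cell RNA sequencing of pancreatic islets of C57BL/6J mice aged 13 weeks, with 1 library of the diet group named CD (not spelled out in the labels) and 1 from mice fed a high-fat diet (HFD). The labels give neither the number of mice behind a library nor any other genotype, agent or treatment. Islets had been freed with collagenase P, purified and picked by hand, and then dispersed with TrypLE before 10x Genomics 3' libraries were made. The study asked about subpopulations of the hormone cells in a diet model of prediabetes, and endothelial cells were not its stated subject.

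Droplet barcodes were taken as cells where they held 1500 or more unique molecular identifiers (UMIs, 1 per captured RNA molecule) and 500 or more genes, with mitochondrially encoded genes at no more than 15% of UMIs. A kept cell counted as endothelial when at least 3 of the 5 genes Pecam1, Cdh5, Plvap, Flt1 and Kdr each had 1 UMI or more and when hormone RNA stayed low (insulin genes under 20% of UMIs, Gcg under 5%, Sst under 3% and Ppy under 10%). These measured values chose the cells, so the levels of the 5 genes and of genes that go with them are a description without a test. Of 21729 kept cells in both libraries, 878 met the rule, namely 344 of 9667 in CD and 534 of 12062 in HFD.

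Islet capillaries are densely packed and fenestrated, with pores spanned by diaphragms that contain the protein encoded by Plvap. Vascular endothelial growth factor A released by β cells keeps this form through its receptor VEGFR2, encoded by Kdr, while VEGFR1, encoded by Flt1, binds the same ligand and can act as a decoy. In return the endothelium lays down the basement membrane on which β cells rest and passes nutrients and hormones between blood and islet.

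The 2 libraries held 265836346 and 271527648 UMIs over all barcodes in CD and HFD. Endothelial cells were shallow beside the rest of the islet, with a median of 4446 UMIs in CD and 4350 in HFD, against 22453 and 18456 in all other kept cells. They therefore contributed 0.786% of the UMIs of kept cells in CD and 1.16% in HFD. Free RNA from lysed cells made up an estimated 7.11% of the UMIs of CD endothelial cells and 9.33% in HFD, from genes of other cell types. The 2 libraries shared 26 kept barcodes, and 0 of these were endothelial. The median share of mitochondrially encoded UMIs was 2.87% in CD and 4.91% in HFD endothelial cells.

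Endothelial cells made up 3.56% of kept cells in CD (Clopper-Pearson 95% interval 3.20% to 3.95%) and 4.43% in HFD (4.07% to 4.81%), a difference of 0.869 percentage points (0.339 to 1.39). Intervals here and below cover counting error only, since 1 library per diet gives no spread between animals, and no test between diets was made. The difference was 0.394 points (-0.0871 to 0.869) when cells needed at least 3000 UMIs, and 1.64 points with no hormone limits. Most kept cells with 3 or more of the 5 genes met the hormone limits, but 37 in CD (9.71% of 381) and 139 in HFD (20.7% of 673) did not. Those cells had median UMIs of 25532 and 20674 and median insulin shares of 54.4% and 47.5%, far above the endothelial medians of 3.03% and 3.63%. Removing barcodes that the scrublet doublet caller scored highest would have taken 14 CD and 31 HFD endothelial cells, which were kept here.

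The rule divided the cells cleanly on its genes. Among cells within the hormone limits, 265 in CD and 428 in HFD had all 5 genes, 67 and 83 had 4, and 12 and 23 had 3. Just outside, 1 CD cell and 0 HFD cells had exactly 2, and 21 and 41 had 1. At the insulin limit, 1 CD and 16 HFD members held 10% to 20% insulin UMIs, while 0 and 5 cells with 3 or more of the genes held 20% to 30%. At the depth limit, 12 and 29 members had fewer than 2000 UMIs, and 8 and 21 barcodes outside had 1000 to 1500.

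Levels are given as counts per 1e6 UMIs (CPM), summed over the cells of a class, first on plain totals. Plvap stood at 4832 CPM in CD and 4522 in HFD endothelial cells and was seen in 100% and 99.3% of them. In all other cells, which were sequenced several times deeper per cell, it was seen in 2.71% and 3.68%. Flt1 stood at 3970 and 4031 CPM, in 99.4% and 99.3% of endothelial cells against 1.53% and 2.72% of the others. Kdr stood at 3216 and 3319 CPM, in 97.4% and 96.8% against 1.29% and 2.75%. Pecam1, an adhesion molecule of endothelial contacts, stood at 908 and 882 CPM, in 92.7% and 93.4% against 1.62% and 2.17%. Cdh5, the cadherin of endothelial adherens junctions, stood at 596 and 645 CPM, in 84.0% and 87.1% against 0.515% and 1.34%. In GRCm38, the build that mm10 names, these genes lie at chr8:71497765-71511752 (Plvap), chr5:147561604-147726011 (Flt1), chr5:75932827-75978458 (Kdr), chr11:106654217-106750628 (Pecam1) and chr8:104101625-104144511 (Cdh5).

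Genes that the rule did not use described the same identity. Of 32 genes listed as pan-endothelial, 31 had at least 50 UMIs in each library, and 31 of these 31 were at least 4 times higher in endothelial cells than in all other cells of both libraries, with a median ratio of 380 in the library where it was lower. Over all genes with enough UMIs, 1796 of 5097 (35.2%) passed that fold, and the median ratio was 2.92. The β cell markers alone, insulin among them, summed to 606080 CPM in the other CD cells and 601320 in the other HFD cells. With hormone, acinar and mitochondrial genes left out of the totals that median was 0.994 and 873 genes passed. With the 5 rule genes left out of each list, 11 of 11 measurable capillary genes, 8 of 8 of the VEGF pathway, 14 of 14 of the basement membrane and 13 of 14 of junctions passed 4-fold, against 0 of 12 of the unfolded protein response and 0 of 13 mitochondrially encoded genes. These counts describe the cells and are no test, because cells were chosen on genes that travel with these.

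The 20 genes outside the rule with the highest ratios named regulators, receptors and surface enzymes of endothelium. Transcription factors among them were Erg, an ETS factor that maintains endothelial identity, Sox17, a factor of arterial development, and the homeobox genes Irx3 and Hoxd8. Erg stood at 53.7 CPM in CD and 29.6 in HFD endothelial cells, against 0.0301 and 0.0563 CPM in the other cells. Tie1, a receptor kinase of the angiopoietin system, stood at 282 and 291 CPM against 0.219 and 0.611. Cd34, a sialomucin of capillary surfaces, stood at 430 and 470 CPM against 0.335 and 0.958. Esm1, a secreted proteoglycan of VEGF-stimulated endothelium, stood at 4332 and 4254 CPM against 3.11 and 9.33. Ace, the angiotensin-converting enzyme, stood at 254 and 305 CPM, and Piezo2, a mechanosensitive channel, at 247 and 281 CPM. Cd300lg, a glycoprotein of capillary and venular endothelium, stood at 1433 and 1042 CPM, and the carboxylesterase Ces2e at 147 and 260 CPM. The other 9 were Tmem252, Tspan18, Arhgef15, St6galnac3, Fgd5, Adcy4, Clec1a, Adgrl4 and 4833403J16Rik. In the library where each was lower, the ratios of the 20 ran from 456 (Adgrl4) to 636 (Irx3). Against only those other cells that had fewer than 2 of the 5 rule genes they ran from 1329 (Hoxd8) to 6477 (Sox17), in another order.

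**Figure D1:**
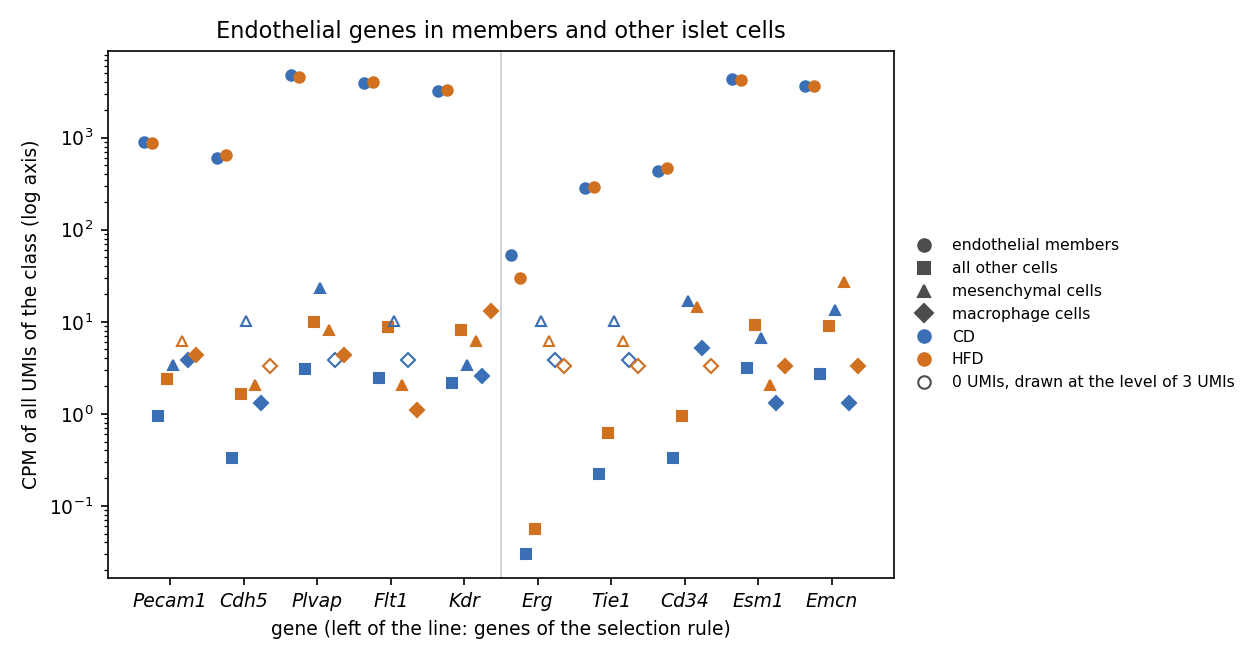
Level of 10 endothelial genes in CPM of all UMIs of a class (log axis) for endothelial cells, all other kept cells, mesenchymal cells and macrophages, CD in blue and HFD in orange. Endothelial cells lie above the 3 comparison classes for all 10 genes in both libraries, with Plvap at 4832 and 4522 CPM and Erg at 53.7 and 29.6 CPM, and open symbols mark 0 UMIs drawn at the level of 3 UMIs.

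Erg and Fli1 belong to the ETS family of transcription factors, whose binding sites centre on GGAA and which are known to act at many endothelial promoters. The 250 bases before the start of 3 of the identity genes are printed to show such letters in place, with each AGGAAG or its reverse complement CTTCCT in capitals. They come from RefSeq on GRCm38.p6 and are given 5′ to 3′ on the strand of the gene: Flt1 at chr5:147726012-147726261 (minus strand), Tie1 at chr4:118489850-118490099 (minus strand) and Cd34 at chr1:194938571-194938820 (plus strand).
Flt1: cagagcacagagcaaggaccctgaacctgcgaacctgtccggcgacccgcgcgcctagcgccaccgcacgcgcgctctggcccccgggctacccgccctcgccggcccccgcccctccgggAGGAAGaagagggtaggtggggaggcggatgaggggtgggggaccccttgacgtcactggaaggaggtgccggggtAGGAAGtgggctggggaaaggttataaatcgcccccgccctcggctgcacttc
Tie1: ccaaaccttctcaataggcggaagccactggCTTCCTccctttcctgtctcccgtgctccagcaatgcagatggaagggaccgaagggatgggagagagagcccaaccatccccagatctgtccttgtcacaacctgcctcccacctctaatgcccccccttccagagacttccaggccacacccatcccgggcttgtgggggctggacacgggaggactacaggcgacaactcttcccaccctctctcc
Cd34: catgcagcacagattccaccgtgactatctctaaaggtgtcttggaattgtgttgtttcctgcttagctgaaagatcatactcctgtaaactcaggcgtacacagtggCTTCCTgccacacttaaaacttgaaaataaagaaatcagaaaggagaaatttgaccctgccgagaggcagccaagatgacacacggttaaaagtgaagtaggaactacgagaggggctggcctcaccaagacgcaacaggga
The Flt1 window held 2 matches, and the windows of Tie1 and Cd34 held 1 each. In windows of 250 bases before to 50 bases after the start, on both strands, AGGAAG was found at 13 of 17 pan-endothelial genes with a RefSeq window (76.5%) and at 8 of 13 of the 20 highest-ratio genes (61.5%). It was found in 35.4% of all 32851 promoters and at 37.4% of 4047 genes with enough UMIs. The related letters CGGAAG were found at 1 of 17 and 2 of 13, against 16.9% of all promoters and 38.7% of the 4047. GATAAG, letters read by GATA factors, was found at 3 of 17 and 4 of 13, against 7.44% of all promoters and 251 of the 4047. The motifs were chosen after the identity genes were known, and a match is a description of letters and not a binding site.

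Markers of most other cell types were low, but those of β cells and of red cells were not. Macrophage markers summed to 116 CPM in CD and 137 in HFD endothelial cells, and 1 and 10 cells had at least 2 of the 9. Mesenchymal markers summed to 304 and 144 CPM, with at least 2 of the 10 in 11 and 11 cells, and Pdgfra, Col1a1 and Lum were at 0 in CD. Lymphocyte markers summed to 7.59 and 16.3 CPM, ductal markers to 23.3 and 162 CPM, Schwann cell markers to 0.542 and 3.70 CPM, and acinar markers to 134 and 37.4 CPM. Erythroid markers summed to 2637 and 7345 CPM, against 11.7 and 63.5 CPM in the other cells, with at least 2 of the 5 in 3 and 22 cells. Of the hormone cells, β cell markers summed to 30192 and 37721 CPM, α cell markers to 1007 and 1756 CPM and δ cell markers to 349 and 770 CPM. The lymphatic genes Ccl21a and Reln were at 0 in both libraries and Pdpn at 0 in CD, and 5 CD and 15 HFD cells had at least 2 of the 7 lymphatic markers.

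Most endothelial cells carried capillary genes. At least 2 of 7 capillary markers were seen in 99.4% of CD and 99.1% of HFD cells. This count does not set capillary cells apart, since Fabp4 and Ehd4 were each in 90% of the venous-like cells described below. Arterial markers (at least 2 of 7) were seen in 34.9% and 31.6%, and in 15.7% and 11.2% after each cell was thinned to 1500 UMIs, which left out no cell. Venous markers (at least 2 of 6) were seen in 9.88% and 5.81%, and in 4.07% and 3.75% after thinning. At matched depth each venous share lay within the interval of the other (2.24% to 6.73% in CD, 2.30% to 5.73% in HFD). Cycling markers (at least 2 of 6) were seen in 5 CD and 8 HFD cells, and in 3 and 5 after thinning.

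Clustering the 878 cells gave 8 subclusters, and the 3 with over 100 cells held most of them. Subcluster 2 (108 CD and 161 HFD cells) was led by the growth factor gene Igf1, by Cyp1a1, by the apelin receptor gene Aplnr and by the transcription factor gene Maf. Subcluster 3 (102 and 148 cells) had few genes of its own and the lowest median depth of the 3 at 3207 UMIs, with the carbonic anhydrase gene Car4 among its leading genes. Subcluster 5 (98 and 144 cells) had the arterial genes Gja4 in 60%, Hey1 in 62%, Stmn2 in 78% and Sema3g in 40% of its cells. It was led by Nebl, Mal, Pcsk5 and Krt80, and it is left unnamed because none of the 7 arterial markers used for naming stood among its 10 leading genes, although Alpl of the wider arterial gene list did. The 3 large subclusters were not stable groups: at a finer resolution the largest piece of subclusters 2, 3 and 5 held 64.7%, 44.8% and 57.0% of their cells, at a coarser one subcluster 5 kept 50.8% together, and without scaling subcluster 2 kept 56.1%.

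Of the smaller groups, subcluster 0 (14 and 27 cells) was venous-like. It held von Willebrand factor (Vwf) at 661 CPM in 78% of its cells against 0.478% of the other endothelial cells, with Selp and Ackr1, adhesion and chemokine-binding molecules of venules, in 44% each and Lrg1 in 88%. Its cells had Esm1 in 0% and the lipoprotein lipase anchor gene Gpihbp1 in 12%. Subcluster 1 (3 and 6 cells) was cycling-like, with Mki67, Top2a and Birc5 in 89% of its cells. Subcluster 4 (11 and 19 cells) carried mural genes (Pdgfrb in 63%, Acta2 in 43%) beside macrophage genes (C1qb in 17%, Lyz2 in 20%) and is unnamed. Subcluster 6 (5 and 16 cells) was led by Gria2 and Fxyd3, with the epithelial gene Epcam in 67% and the secretory granule gene Chgb in 62%. Subcluster 7 (3 and 13 cells) was led by haemoglobin genes, with Hbb-bs at 163560 CPM in CD and 130030 in HFD. In each subcluster at least 2 of the 10 genes that lead it differed by over 1.5 times between diets across all endothelial cells, so sizes are not compared between diets.

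**Figure D2:**
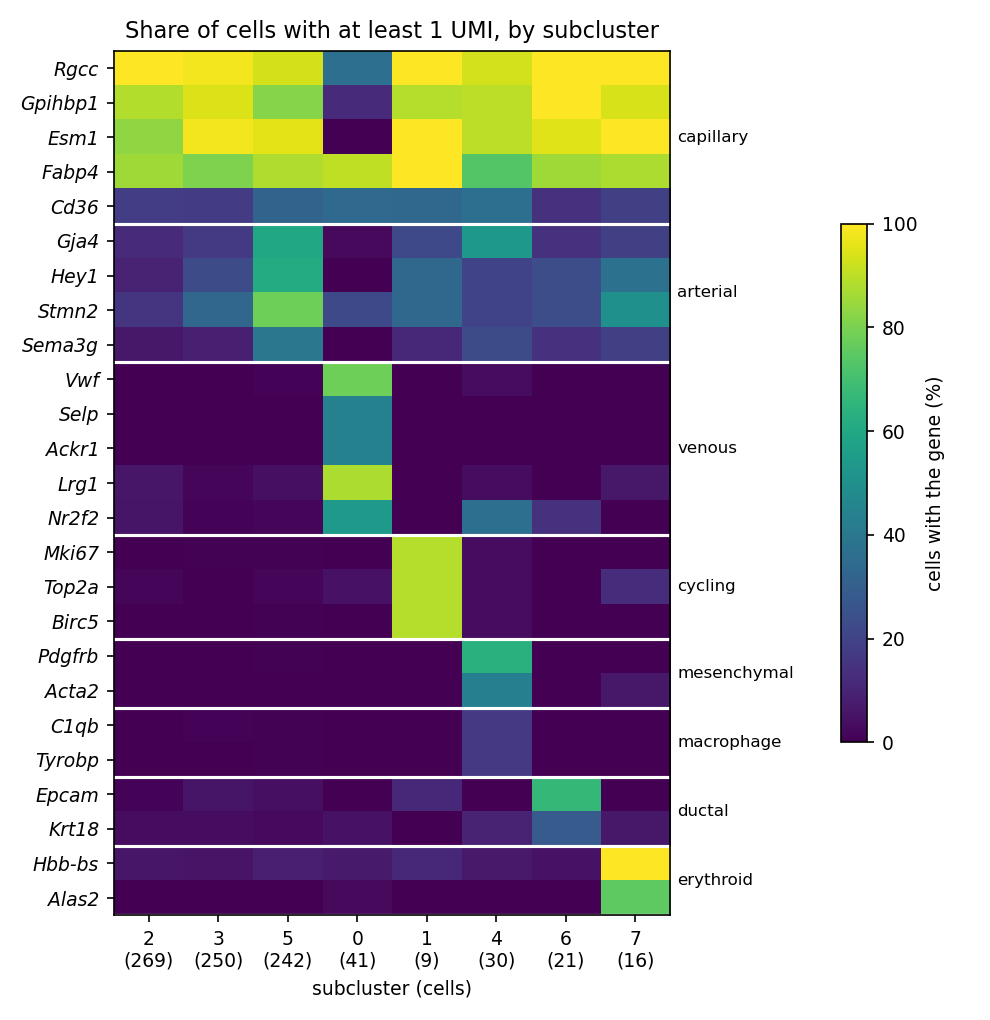
Share of cells (colour, in %) with at least 1 UMI of a marker gene (rows, grouped by class) in each of the 8 subclusters (columns, with the number of cells). Esm1 and Gpihbp1 are seen in most cells of every group except subcluster 0, which holds the venous genes (Vwf in 78%). The arterial genes Gja4, Hey1, Stmn2 and Sema3g peak in subcluster 5 (Stmn2 in 78%), and mural, epithelial and haemoglobin genes peak in subclusters 4, 6 and 7. The arterial marker Fbln5, which is not drawn, was seen most in subcluster 0 (32%).

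The diets were then compared over the summed UMIs of endothelial cells, in CPM scaled by TMM factors that correct for differing composition. A ratio HFD/CD is given as log2 with an exact conditional binomial 95% interval. A gene entered when it had at least 50 UMIs, 50 CPM and 10% of cells in its higher library and when its level in that library was 3 or more times the level from free RNA. Of 3447 such genes, 24 were at least 2 times higher in HFD (0.696%) and 4 at least 2 times lower (0.116%). Nearly all genes thus lay within 2-fold between the 2 libraries. Of the 24 higher genes, 20 also had a ratio above 1 in all other islet cells, 22 in mesenchymal cells and 18 in macrophages, in the same pair of libraries. The share of all 3447 genes above 1 in each class was not counted, so these counts do not show a shared direction. Some of the ratios rest on few UMIs, such as Stc1 with 0 in CD and 1 in HFD macrophages.

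**Figure D3:**
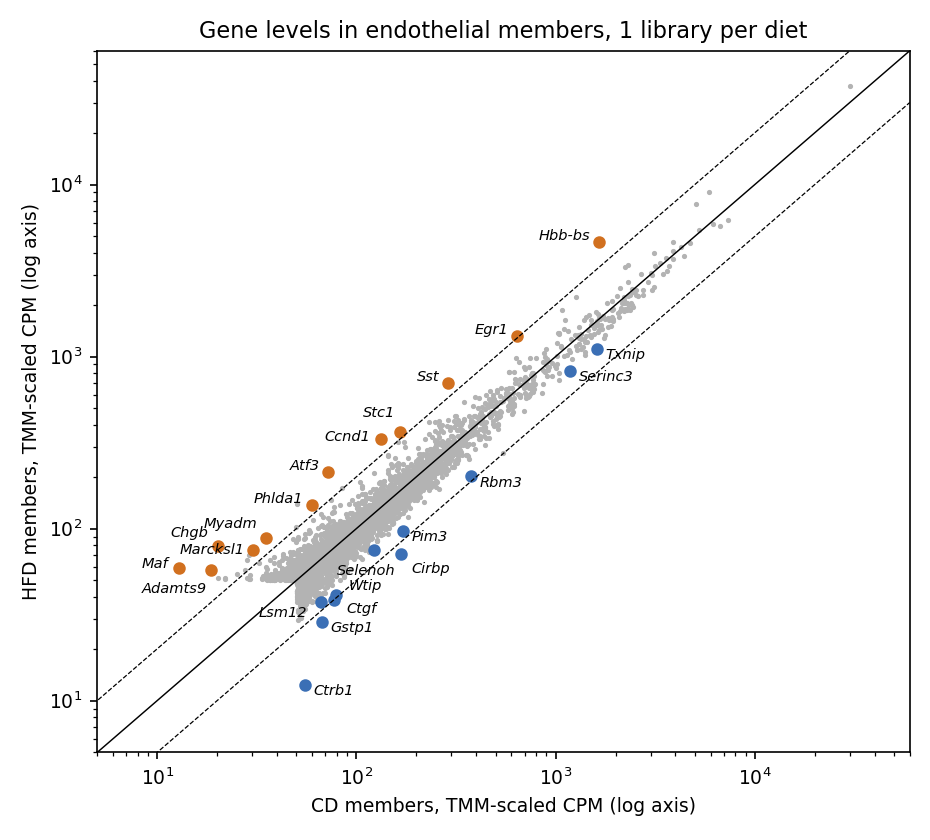
Level of each of the 3447 genes in CD (horizontal) and HFD (vertical) endothelial cells, in TMM-scaled CPM on log axes, with the line of equal levels and dashed lines at 2-fold. The 12 genes ranked higher (orange) and 11 ranked lower in HFD (blue) are named, and the other genes lie near the line, with Maf (12.8 and 59.0 CPM) and Ctrb1 (55.5 and 12.4 CPM) farthest from it among the named genes.

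The gene ranked first was Maf, which encodes a basic leucine zipper transcription factor (chr8:115682942-115707794, minus strand). It had 24 UMIs in 18 CD cells and 157 UMIs in 88 HFD cells, or 12.8 and 59.0 CPM (log2 2.21, 1.58 to 2.89). In all other islet cells the log2 ratio was 0.11, and in macrophages it was -0.40. Within subcluster 2, where Maf was a leading gene, it stood at 24.7 CPM in CD and 126 in HFD, and it was also higher in HFD in subclusters 3 (2.57 and 27.1 CPM) and 5 (0 and 14.7 CPM). Adamts9, a secreted protease of extracellular matrix, stood at 18.7 and 57.5 CPM (log2 1.62, 1.09 to 2.20), against a log2 ratio of 0.60 in the other cells.

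Ccnd1, which encodes cyclin D1 of the G1 phase, stood at 132 CPM in CD and 332 in HFD (log2 1.33, 1.12 to 1.54). It was seen in 127 CD and 326 HFD cells, and no cell held more than 22 UMIs, so the difference was spread over many cells. The same gene had a log2 ratio of 1.80 in mesenchymal cells and 0.26 in all other cells. The other D cyclin genes Ccnd2 and Ccnd3 stood at 231 and 354 CPM and at 97.1 and 102 CPM. Mki67, a marker of dividing cells, stood at 18.7 and 7.14 CPM.

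Stc1, which encodes the secreted glycoprotein stanniocalcin 1 (chr14:69029238-69041804, plus strand), stood at 165 CPM in CD and 365 in HFD (log2 1.15, 0.96 to 1.34). It was nearly absent from other islet cells, at 0.145 and 0.981 CPM. Its level was higher in HFD in each large subcluster, at 64.7 and 178 CPM in subcluster 2, at 162 and 443 CPM in subcluster 3 and at 294 and 556 CPM in subcluster 5. Those cells are the same ones that ranked the gene, so this shows only that no single subcluster carried it.

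The stress-induced transcription factor gene Atf3 stood at 72.0 and 212 CPM (log2 1.56, 1.29 to 1.84), with 1.34 in all other cells and -0.030 in macrophages. Egr1, an immediate early transcription factor gene, stood at 637 and 1311 CPM (log2 1.04, 0.94 to 1.14), with 0.54 in other cells. Of the remaining ranked genes, Myadm, a membrane protein gene, stood at 35.2 and 88.0 CPM, Marcksl1, an actin regulator gene, at 30.4 and 75.6 CPM, and Phlda1 at 59.7 and 137 CPM, with log2 ratios from 1.20 to 1.32. Those past 2-fold outside the ranked 12 were Gm26802, Dusp5, Hsph1, mt-Nd3, Chka, Ces2g, Serpinb9, Pdlim1, Odc1, Egr3, Nfkbiz and Neat1, with log2 ratios between 1.02 (Neat1) and 1.47 (Gm26802).

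The remaining 3 ranked genes are markers of other cells. Sst, the somatostatin gene of δ cells, stood at 289 and 705 CPM, but a single cell held 304 of the 542 UMIs in CD and the 5 highest cells held 61.5% in HFD. Chgb, of the secretory granules of endocrine cells, stood at 20.3 and 79.3 CPM, where free RNA alone would bring 22.4 and 24.2 CPM. Hbb-bs, a β-globin gene of red cells, came from 13 cells in CD and 60 in HFD, at 1645 and 4641 CPM. In all other islet cells Sst and Chgb were slightly lower in HFD (log2 -0.21 and -0.12), while Hbb-bs was higher (2.47). In the 3 large subclusters alone the log2 ratio of Chgb was 1.18 and that of Hbb-bs was 3.38.

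The 4 genes at least 2 times lower in HFD were Ctrb1, Gstp1, Cirbp and Ctgf. Ctrb1, a chymotrypsinogen gene of acinar cells, stood at 55.5 CPM in CD and 12.4 in HFD, and was lower by more in all other cells (log2 -4.27 against -2.16 in endothelial cells). Cirbp, a cold-inducible RNA-binding protein gene (chr10:80165985-80172786, plus strand), stood at 167 and 71.1 CPM (log2 -1.23, -1.50 to -0.97). Its partner Rbm3 stood at 378 and 202 CPM (log2 -0.91), and both genes were lower in HFD in all other cells too (-0.92 and -1.48). Gstp1, a glutathione transferase gene, stood at 67.2 and 28.6 CPM. Ctgf, a matricellular target of TGF-β signalling that is also named Ccn2, stood at 76.8 and 38.4 CPM (interval of the log2 ratio -1.38 to -0.63), and at 1251 and 494 CPM in mesenchymal cells. Without the endothelial cells that held at least 2 immune or mesenchymal markers its log2 ratio was -0.72, short of 2-fold.

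Genes ranked lower without reaching 2-fold included a pair whose ratio was above 1 in the sum of all other cells. Txnip, which encodes a thioredoxin-binding protein that curbs glucose uptake (chr3:96557957-96561883, plus strand), stood at 1611 CPM in CD and 1106 in HFD endothelial cells (log2 -0.54, -0.62 to -0.47). In all other cells it stood at 112 and 131 CPM (log2 0.22). Among these, macrophages had it lower in HFD too (log2 -0.32, -0.62 to -0.018), and mesenchymal cells had a log2 ratio of -0.21 (-0.42 to 0.012). Serinc3, a membrane protein gene, stood at 1188 and 825 CPM (log2 -0.53, -0.61 to -0.44), against 0.34 in other cells, -0.33 in macrophages (-0.53 to -0.14) and 0.043 in mesenchymal cells (-0.32 to 0.41). Both were found in over 90% of endothelial cells of either library. Pim3, Wtip, Lsm12 and Selenoh were also ranked lower, with log2 ratios from -0.93 (Wtip) to -0.72 (Selenoh), and each was below 0 in the sum of all other cells too. In mesenchymal cells Wtip and Lsm12 were below 0, but Pim3 was at 0.067 and Selenoh at 1.37 (0.34 to 2.54). Over the alternative settings Selenoh ran from -0.78 to -0.10 in endothelial cells.

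**Figure D4:**
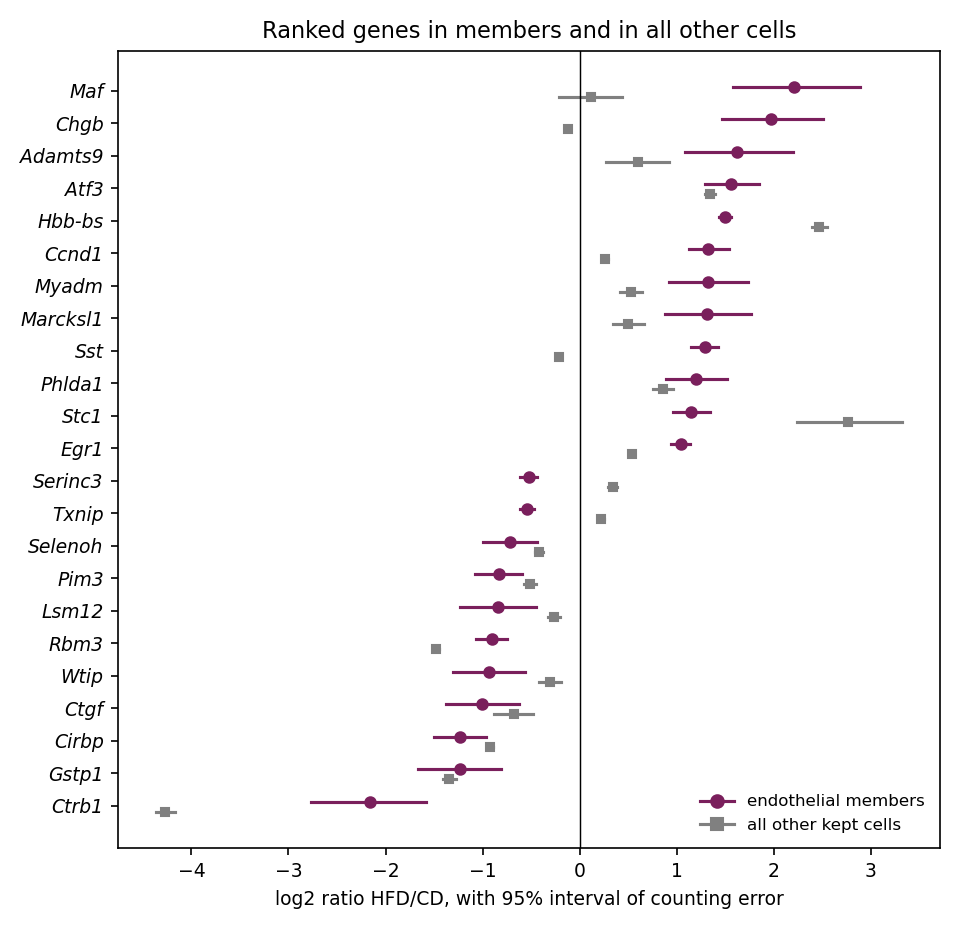
Log2 ratio HFD/CD of 23 ranked genes in endothelial cells (purple circles) and in all other kept cells (grey squares), with 95% intervals of counting error as bars. Most pairs lie on the same side of 0, whereas Txnip, Serinc3, Chgb and Sst lie on opposite sides (Txnip at -0.54 and 0.22).

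Gene lists are described by the measured members (at least 20 UMIs over both libraries), how many had a ratio above 1 and their median log2 ratio. Over all 9847 measured genes, 4906 were above 1 and the median was -0.0011, and the interval lay above 1 for 964 (9.79%) and below 1 for 984 (9.99%). Intervals narrow as UMIs rise. The share over genes of like depth was not counted, so these shares cannot gauge a list whose genes have many UMIs. Identity genes had no common direction between the diets: 16 of 32 pan-endothelial genes were above 1, with a median of 0.0064 and none past 2-fold. Single genes differed both ways, with intervals of 9 above 1 and of 11 below (9.79% and 9.99% of all measured genes). Emcn, a sialomucin gene of capillaries and veins, stood at 3576 and 3745 CPM (with no hormone limits, log2 -0.077), and the rule gene Pecam1 at 893 and 897 CPM. The largest departures were lower in HFD and fell on transcription factors, Erg at 52.8 and 30.1 CPM (log2 -0.81) and Sox17 at log2 -0.73 from 82.7 CPM in CD. Capillary genes had 5 of 14 above 1 and a median of -0.051, with Car4 at 288 and 428 CPM. Arterial genes had 7 of 14 above 1 and a median of 0.00065, and venous genes 9 of 14 and a median of 0.034.

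Angiogenic genes leaned towards HFD without any passing 2-fold. Of 14 measured tip-cell and angiogenic genes, 12 were above 1 with a median of 0.24, and the intervals of 7 lay above 1 and of 0 below (9.79% and 9.99% of all measured genes). The chemokine receptor gene Cxcr4 stood at 21.3 and 38.7 CPM (log2 0.86), and Apln, the apelin gene of sprouting tip cells, at 27.7 and 47.4 CPM (log2 0.77). Both lay below the minimum for the 2-fold count, and Apln ran from 0.046 to 0.98 over the alternative settings. Esm1 was level at 4262 and 4323 CPM on this scale (log2 0.02). In the VEGF and angiopoietin list 9 of 13 were above 1 with a median of 0.091. Its receptors were level, with Flt1 at 3906 and 4097 CPM (log2 -0.083 with no hormone limits) and Kdr at 3164 and 3373 CPM. Both are rule genes that chose the cells in each library, so their levels are a description, and both count in this list. The co-receptor gene Nrp2 stood at 132 and 187 CPM. The ligand gene Vegfb stood at 23.5 and 9.78 CPM, below the minimum for the 2-fold count. In the Notch list 10 of 13 were above 1 with a median of 0.16, with the target gene Hes1 at 394 and 579 CPM (log2 0.55) and the ligand gene Dll1 at a log2 ratio of 0.65 (0.099 to 1.21), while the glycosyltransferase gene Mfng stood at 110 and 81.6 CPM.

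The basement membrane list had 11 of 15 genes above 1 and a median of 0.16, and its summed level was 5910 CPM in CD and 7770 in HFD. On plain totals the sum was 6006 and 7646 CPM in endothelial cells and 5577 and 7090 CPM in mesenchymal cells. It was 26.2 and 49.5 CPM in all other cells, so a higher sum in HFD was not particular to endothelial cells. Col15a1, a collagen gene of the outer basement membrane zone, stood at 173 and 319 CPM (log2 0.88, 0.69 to 1.07). Sparc, a collagen-binding glycoprotein gene, stood at 2241 and 3326 CPM (log2 0.57, 0.52 to 0.62). Sparc was higher in HFD in each large subcluster, at 2514 and 4005 CPM in subcluster 2, at 2232 and 3100 CPM in subcluster 3 and at 2072 and 3030 CPM in subcluster 5. The type IV collagen genes Col4a1 and Col4a2 stood at 1104 and 1442 CPM and at 800 and 986 CPM, while the laminin gene Lamb2 was lower in HFD (log2 -0.50). Mesenchymal cells, which also make matrix, had lower summed markers in HFD than in CD endothelial cells (144 and 304 CPM), and their part in these values was not tested.

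Among junction and permeability genes 11 of 19 were above 1 with a median of 0.13, and Cav1, the caveolin of transport vesicles, stood at 285 and 397 CPM. Flow-responsive genes had 6 of 10 above 1 and a median of 0.041. Within that list Klf2, a transcription factor gene induced by laminar flow, stood at 1750 and 1277 CPM (log2 -0.46), whereas Nos3, the endothelial nitric oxide synthase gene, stood at 42.7 and 69.6 CPM (log2 0.70). The BMP and TGF-β list had 7 of 18 above 1, a median of -0.086 and 1 gene past 2-fold, Ctgf. Its target gene Id3 stood at 1844 and 1486 CPM, and the signal transducer gene Smad5 at 28.3 and 51.5 CPM.

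Fatty acid handling genes leaned the other way, with 5 of 18 above 1, a median of -0.16 and intervals of 9 below 1 and of 1 above (9.99% and 9.79% of all measured genes). Fabp4, a fatty acid carrier gene of capillaries, stood at 4399 and 3864 CPM (log2 -0.19), and Gpihbp1 at 1390 and 1259 CPM. Tcf15, which with Meox2 controls fatty acid uptake in heart capillaries, stood at 41.1 and 19.9 CPM (log2 -1.04), below the minimum for the 2-fold count. Lpl, the lipoprotein lipase gene, was also below that minimum at 17.6 and 5.64 CPM (log2 -1.64). With cells thinned to 1500 UMIs its log2 ratio was 0.018, and with no hormone limits it was -0.13. The gene with its interval above 1 was Fabp5, a related carrier, at 157 and 257 CPM (log2 0.71). Receptors for islet and metabolic signals had 5 of 16 above 1 and a median of -0.14, although the insulin receptor gene Insr stood at 308 and 423 CPM (log2 0.46) and Aplnr at 9.60 and 34.2 CPM (log2 1.83). Aplnr, with 18 UMIs in 13 CD cells and 91 in 48 HFD cells, lay below the minimum for the 2-fold count.

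Immune genes were mixed. Leukocyte adhesion and chemokine genes had 11 of 14 above 1 and a median of 0.33. Selp stood at 5.87 and 19.2 CPM, from 6 CD and 12 HFD cells, and Cxcl10 had 1 UMI in CD and 27 in HFD, of which 1 cell held 18. Antigen presentation and interferon genes had 19 of 28 above 1 and a median of 0.27. The class I gene H2-D1 stood at 1939 and 1660 CPM, while the interferon-induced Isg15 stood at 60.3 and 112 CPM. The class II genes differed most, with 14 and 183 UMIs of H2-Eb1 and 59 and 476 UMIs of Cd74, but the 5 highest cells held 88.0% and 86.1% of these in HFD. Most of that Cd74 lay in subcluster 4, which carries macrophage genes, at 231 CPM in CD and 3682 in HFD. In the 3 large subclusters H2-Eb1 had a log2 ratio of -0.18.

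Of the mitochondrially encoded genes 13 of 13 were above 1, with intervals of 12 above 1 and a median of 0.61. Their sum was 32384 CPM in CD and 53046 in HFD, with mt-Nd3, past 2-fold, at 286 and 680 CPM. A higher sum in HFD was not particular to endothelial cells. On plain totals it was 28593 and 42003 CPM in all other cells, 51264 and 78774 in mesenchymal cells and 27302 and 54744 in macrophages. The level of mt-Co3 was 4228 and 9249 CPM, under 3 times that from free RNA, so it was not counted. With free RNA subtracted the median was 0.37. The immediate early and dissociation list, genes known to be induced while tissue is dispersed, had 18 of 22 above 1, intervals of 16 above 1 (9.79% of all measured genes), a median of 0.34 and 3 genes past 2-fold (Atf3, Hsph1 and Egr1). Fos stood at 2324 and 2714 CPM. Both cold-inducible genes were below 1. Handling of the islets, RNA quality and diet cannot be told apart in these 3 lists, since each diet is 1 library.

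**Figure D5:**
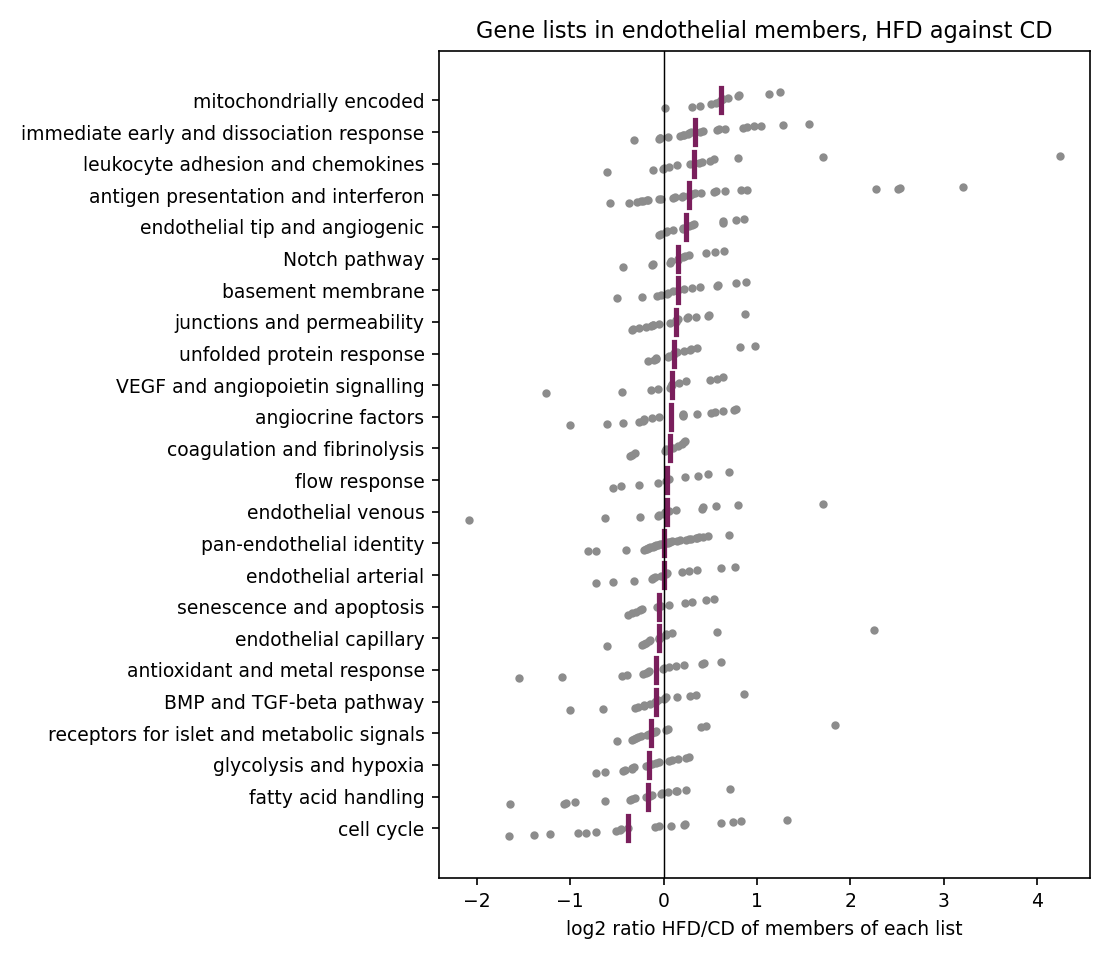
Log2 ratio HFD/CD of each measured gene (grey points) in the 24 gene lists with more than 2 measured genes, in endothelial cells, with the median of each list as a purple bar. Medians run from -0.39 for cell cycle genes to 0.61 for mitochondrially encoded genes, and the pan-endothelial list is centred at 0.0064.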

How the data were processed

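Counts of UMIs per gene and barcode were measured in 1 CD and 1 HFD islet library. The deposited matrices hold raw counts with no normalization and list every barcode. Per the submitters' processing notes Cell Ranger 6.0.1 and mm10 were used, while version 3.0.2 of the software wrote the matrices per the file headers. No annotation release is named in the sources used here. Gene IDs matched at a rate of 99.9% to GENCODE M21 on GRCm38, the source of positions.

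The members and gene lists were chosen with earlier results of these data known. Depth was 265836346 and 271527648 UMIs. Barcodes were kept at 1500 UMIs, 500 genes and 15% mitochondrial UMIs. Doublets were scored with scrublet (scanpy 1.11.5) and kept, with removal as an alternative. Free RNA was profiled in barcodes of 10 to 100 UMIs. Mesenchymal cells and macrophages needed at least 3 markers of their class within the same hormone limits. Subclusters came from log-normalized counts (1000 variable genes, 15 components, 15 neighbours, Leiden resolution 0.5, igraph 0.11.9) scaled within each library, without hormone, acinar, mitochondrial and ribosomal genes.

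UMIs were summed per library and scaled with TMM (edgeR 4.0.16, R 4.3.3). Ratios have exact conditional binomial 95% intervals, computed in scipy 1.17.1. Their code was checked on simulated counts drawn from the Poisson model that the intervals assume. That check could not show how the intervals fare for genes whose UMIs lie in few cells. No test was made with 1 library per diet. Named genes were the 20 with the highest identity ratio in the lower library, the 12 highest and 12 lowest HFD/CD ratios by the bound nearest 1 (no ribosomal, mitochondrial or unnamed genes), and in each of 26 lists the member with most UMIs and the 2 farthest from 1. Other list members named beside them (among them Nos3, Fabp5, Car4, Col4a1, Isg15, Ccnd2 and Mki67) and the cold-inducible list of 2 genes were picked after their values were seen. A ranked gene and a list gene that the rule picked are not reported here. Alternatives varied the depth, marker, hormone and mitochondrial limits, doublets, cells with markers of other types, scaling, thinning, free RNA and the minimum of counts.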

Additional observations from a re-analysis of the deposited data

Results flagged for a closer look

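For 11 named genes the interval of the HFD/CD ratio lay on one side of 1 in endothelial cells and on the other side in all other kept cells. The difference between the classes was not tested, since each diet is 1 library. In endothelial cells the log2 ratio was -0.54 for Txnip, -0.53 for Serinc3 and -0.39 for Cdkn1a, the p21 gene, against 0.22, 0.34 and 0.23 in the sum of the other cells. Within these, macrophages had log2 ratios of -0.32 (-0.62 to -0.018), -0.33 (-0.53 to -0.14) and 0.036 (-0.32 to 0.39), and mesenchymal cells had -0.21 (-0.42 to 0.012), 0.043 (-0.32 to 0.41) and -0.57 (-1.15 to 0.012). For Txnip and Serinc3 a lower level in HFD was thus not particular to endothelial cells. It was 0.36 for Dnajb9, an endoplasmic reticulum chaperone gene, against -0.036, and mesenchymal cells had 1.23 (0.56 to 1.95).

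The endothelial genes Plvap (-0.049), Fabp4 (-0.19), Klf2 (-0.46), Id3 (-0.31) and Entpd1 (-0.34) were level or lower in HFD endothelial cells, whereas in the other cells they had log2 ratios of 1.73, 1.23, 0.88, 0.81 and 0.47. Their levels there were low, with Plvap at 3.02 and 10.0 CPM and Fabp4 at 4.30 and 10.1 CPM. Plvap is also a rule gene, so its values in endothelial cells and in the other cells come from classes that were chosen partly on it. The other cells include the 37 CD and 139 HFD cells with 3 or more endothelial genes that exceeded a hormone limit. In the other cells with fewer than 2 of the 5 genes, a comparison added after seeing the data, Plvap stood at 0.869 and 1.25 CPM, and the log2 ratios were 0.52 (0.25 to 0.79) for Plvap, 0.75 for Fabp4, 0.76 for Klf2, 0.65 for Id3 and 0.20 (-0.18 to 0.58) for Entpd1.

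The endocrine genes Chgb (1.97) and Sst (1.29) were higher in HFD endothelial cells and had log2 ratios of -0.12 and -0.21 in the other cells, though Chgb was higher in HFD macrophages (2.73) and Sst in HFD mesenchymal cells (1.09). Subcluster 6, with 5 CD and 16 HFD cells, held Sst at 9043 and 8690 CPM.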

How the results depend on the processing

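No paired analysis was possible because each diet has 1 library. A change of sign is counted here only where the reported interval (for a list, the median of its members' bounds) lay on one side of 0. Over 24 alternative settings, the 23 ranked genes reported gave 390 values, of which 0 changed sign and 22 moved beyond their interval. The 81 named genes reported gave 1373 values, with 5 changes of sign, and the 26 lists gave 468 medians, with 1. Where the interval held 0, 6 named genes changed sign in 16 values and 10 lists in 37 medians, to sizes of at most 0.141 and 0.183. The counted changes of sign were -0.39 for the lymphatic list with no minimum of counts, 1.37 for Cenpf and -0.18 for H2-Eb1 in the 3 large subclusters alone, 0.018 for Lpl with cells thinned to 1500 UMIs, and -0.077 for Emcn and -0.083 for Flt1 with no hormone limits. The difference in share was 1.64 percentage points with no hormone limits. The count of genes at least 2 times higher was 22 to 28 except with no minimum of counts (797 of 12334 genes, with 574 lower), and 7 were lower when every cell was counted alike. A count of that size need not hold the same genes: 19 of the 24 were among those found in the large subclusters, 13 with thinned cells and 10 with no hormone limits. Identity counts were 598 against mesenchymal cells and macrophages and 873 with totals free of hormone, acinar and mitochondrial genes. Among the alternative scalings the median of all genes was farthest from 0 with total counts, at -0.049, against -0.0011 as reported. Chgb was 1.18 in the large subclusters and 0.76 with no hormone limits, Sst 0.65 with no hormone limits, Hbb-bs 3.38 in the large subclusters and Cd74 1.07 without cells holding immune or mesenchymal markers. The causes were not tested. At other resolutions 7 and 12 subclusters were found, and 9 without scaling. Members had few UMIs each, so a gene with under 20 UMIs in both libraries together has no value here. The alternatives with no erythroid cells, no hormone limits and large subclusters alone were chosen after seeing the data.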

Other observations

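Unfolded protein response genes had 12 of 16 above 1 in HFD endothelial cells and a median log2 ratio of 0.11, with intervals of 5 above 1 and of 0 below (9.79% and 9.99% of all measured genes). Calr, the calreticulin gene, stood furthest from 1 at 162 and 319 CPM (log2 0.98), while Hsp90b1 was at 0.11. Glycolysis and hypoxia genes had 5 of 17 above 1 and a median of -0.15, with Epas1, the HIF-2α gene of endothelium, at 660 and 685 CPM. Coagulation genes had 7 of 10 above 1 and a median of 0.063, with the protein S gene Pros1 at -0.36. Angiocrine factors had 9 of 18 above 1 and a median of 0.076. Igfbp7 stood at 6692 and 5760 CPM, and Igfbp4 had a log2 ratio of 0.75. Of the lymphatic list 2 of 10 genes were measured, with Prox1 at 7 and 30 UMIs and Flt4, which blood capillaries also express, at 137 and 145 CPM. Prox1 was highest in subcluster 6, which carried Epcam and Chgb, at 73.4 CPM in 33% of its cells. In every other subcluster it stood at 13.0 CPM or less, so it does not mark lymphatic cells here.

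Cell cycle genes had 7 of 19 above 1 and a median of -0.39, although Ccnd1 was past 2-fold in the other direction. That median equalled the log2 ratio of Cdkn1a, the p21 gene. The medians of the members' bounds were -0.75 and 0.196, on either side of 0, and in the 3 large subclusters alone the list median was 0.072. At least 2 cycling markers were seen in 5 of 344 CD and 8 of 534 HFD cells. The list median therefore does not show fewer cycling cells in HFD. Cenpf rested on few cells, with 78 UMIs in 6 CD cells, of which 1 held 44, and its log2 ratio was 1.37 in the 3 large subclusters alone. Senescence and apoptosis genes had 5 of 12 above 1 and a median of -0.050, with Cdkn1a at 1045 and 800 CPM. The antioxidant and metal list had 7 of 16 above 1 and a median of -0.083. Its metallothionein gene Mt1 stood at 233 CPM in CD and 79.3 in HFD (log2 -1.55), but free RNA alone would bring 233 and 98.6 CPM, so it was not counted among genes past 2-fold.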
